A study of Mus musculus with 2 samples.

Results

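The Hippo pathway core was examined in perivascular cells (PVCs) of the mouse aorta through 10 genes. These were the co-activators Yap1 and Wwtr1 (the gene of TAZ), the transcription factors Tead1, Tead2, Tead3 and Tead4, the kinases Lats1 and Lats2, and the angiomotin-like genes Amotl1 and Amotl2. All 10 were found among the 20211 gene symbols of the expression tables, each on 1 row. All 10 were among the 10068 genes kept, those whose RPKM averaged 1 or more over both libraries. The WT library was made from cultured PVCs of C57BL/6 background with a wild type genotype, and the Kai1 KO library (called Kai1-/- below) from PVCs of the same background and tissue lacking Kai1 (Cd82), a tetraspanin membrane protein. Both were grown in DMEM with 10% FBS according to the labels, while the study's methods give a higher serum concentration. The methods describe the mice bought for the study as adults, male or female, without saying which gave these cultures. How the Kai1 allele was made and how many animals gave each culture are not given in the sources used here. Each genotype has 1 library, so no difference below has a replicate check and no p-value was computed.

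In mammalian cells the kinases MST1 and MST2 activate LATS1 and LATS2, which phosphorylate YAP and TAZ and hold them in the cytoplasm or mark them for degradation. Unphosphorylated YAP and TAZ enter the nucleus and bind the TEAD factors, which recognise DNA through their TEA domain, and switch on genes of growth, matrix and cytoskeleton. Angiomotins bind YAP and TAZ and help LATS to act, and both Lats2 and Amotl2 are themselves known YAP/TAZ targets. In cells of the vessel wall the pathway responds to stiffness, stretch and cell density. Because it acts largely through phosphorylation, mRNA levels give the amount of transcript and not the activity of the pathway.

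Values are given in RPKM, read counts set per length of transcript and per sequencing depth. The log2 ratio is that of Kai1-/- to WT after adding 0.1 RPKM to each, which makes changes at low values look smaller. From the steps between low values, the depth was estimated at 29460000 mapped reads for WT and 26620000 for Kai1-/- PVCs, and all intervals below are 95% intervals from such reads. They cover counting error only and not the spread between animals or cultures. The targeted gene Cd82 had an RPKM of 12.8 in WT and 2.62 in Kai1-/- PVCs. The 4 Y-linked genes examined, Ddx3y, Eif2s3y, Kdm5d and Uty, ranged between 0.480 and 6.56 RPKM in WT and were listed at 0 in Kai1-/- PVCs, so sex and genotype cannot be told apart. Of 11 mural markers, 7 were kept, among them Pdgfrb with an RPKM of 44.7 in WT and 31.6 in Kai1-/- PVCs. All 7 were lower in Kai1-/- PVCs, though Myh11 and Mcam were kept only through their WT value. The pericyte marker Rgs5 was near 0, with an RPKM of 0.0630 in WT and 0.233 in Kai1-/- PVCs. Of 10 endothelial markers, 2 were listed at 0 in WT and 9 in Kai1-/- PVCs. In WT, Pecam1 had an RPKM of 0.413 and Tek 0.409, and Egfl7, the exception in Kai1-/- PVCs, had an RPKM of 2.28 in WT and 7.39 in Kai1-/- PVCs. Of 16 proliferation markers, 13 were more than 2-fold higher in Kai1-/- PVCs on the scale as deposited, against 7.98% of all genes kept. Rrm2 was lower, with an RPKM of 39.0 in WT and 33.3 in Kai1-/- PVCs. The part of sex, mural state and proliferation in the values below was not tested. In bulk RNA, fewer cells of a type and less RNA per cell cannot be told apart.

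YAP and TAZ bind no DNA themselves, and TEADs bind the core motif GGAATG, which reads as CATTCC on the opposite strand. The motif was searched on both strands, any overlap allowed, in the RefSeq promoter windows of assembly GRCm38.p6, which run from 250 bases before to 50 bases after a gene's start. The windows covered 8 of the 10 genes. Of these 8, 5 had a match in at least 1 window, namely Yap1, Wwtr1, Tead3, Lats2 and Amotl2, and Tead2, Lats1 and Amotl1 had none. Of the genes kept, 7644 had a window and 14.1% of these a match, and among all 27025 symbols 16.6%. For Lats2 the match began at position 4 relative to the start, in 1 of its 2 windows. The stretches below show the match before the start of both co-activator genes and of Amotl2, and of 3 known YAP/TAZ target genes described later. Capitals mark the motif, each stretch is given 5′ to 3′ on the strand of its gene, and positions are those of its exact match in build NCBI37 (mm9). A match describes the letters of this window and is not a measured binding site.

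Yap1, chr9:8004682-8004787, minus strand: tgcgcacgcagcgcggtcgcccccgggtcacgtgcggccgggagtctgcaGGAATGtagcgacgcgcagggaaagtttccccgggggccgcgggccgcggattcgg
Wwtr1, chr3:57379913-57380018, minus strand: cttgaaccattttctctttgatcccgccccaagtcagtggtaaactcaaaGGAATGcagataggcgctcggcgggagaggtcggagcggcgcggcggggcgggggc
Amotl2, chr9:102620057-102620086, plus strand: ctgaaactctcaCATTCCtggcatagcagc
Ccn1 (Cyr61), chr3:145312997-145313102, minus strand: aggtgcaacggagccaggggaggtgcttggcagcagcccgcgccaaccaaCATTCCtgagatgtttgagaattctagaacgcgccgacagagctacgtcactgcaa
Ankrd1, chr19:36194402-36194507, minus strand: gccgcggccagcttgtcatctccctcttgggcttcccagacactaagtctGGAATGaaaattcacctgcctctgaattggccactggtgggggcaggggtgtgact
Crim1, chr17:78599459-78599564, plus strand: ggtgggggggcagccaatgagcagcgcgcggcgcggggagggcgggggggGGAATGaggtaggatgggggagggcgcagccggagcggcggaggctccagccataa

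Relative to the start, the matches shown began at -141 in Yap1, -136 in Wwtr1, -65 in Amotl2, -103 in Ccn1, -123 in Ankrd1 and -79 in Crim1. The GENCODE M1 annotation places no gene on the stretches of Yap1, Wwtr1, Ccn1, Ankrd1 and Crim1. The stretch of Amotl2 lies upstream of the start used by RefSeq and within an exon of other annotated Amotl2 transcripts, and is therefore kept short.

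The co-activators were expressed at similar levels and shifted in opposite directions. Yap1 (ENSMUSG00000053110.7, chr9:7931999-8004596) encodes YAP, the main effector of the pathway. Its RPKM was 17.6 in WT and 14.9 in Kai1-/- PVCs, a log2 ratio of -0.25 with an interval from -0.34 to -0.15. Wwtr1 (ENSMUSG00000027803.8, chr3:57259571-57379832) encodes TAZ, the paralogue of YAP. Its RPKM was 16.01 in WT and 18.36 in Kai1-/- PVCs, a log2 ratio of 0.20 (0.11 to 0.28) that was below 0 when the upper quartiles of the libraries, their RPKM sums or Gapdh were made equal. Yap1 was the more abundant of the pair in WT and Wwtr1 in Kai1-/- PVCs. The ratio of Yap1 to Wwtr1 within a library, which no scaling of the library can change, was 1.10 in WT and 0.810 in Kai1-/- PVCs. The log2 change of this ratio was -0.44, with a counting interval from -0.57 to -0.31. The sum of both co-activators was 33.6 RPKM in WT and 33.2 RPKM in Kai1-/- PVCs as deposited, and the latter was 23.7 RPKM with RPKM sums made equal and 23.5 RPKM when scaled to Gapdh.

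Of the TEAD factors, 2 were lower and 2 higher on the scale as deposited. Tead1 (ENSMUSG00000055320.8, chr7:119822832-120050319) and Tead4 (ENSMUSG00000030353.9, chr6:128174306-128250841) were lower in Kai1-/- PVCs. Tead1, the broadly expressed member of the family, had an RPKM of 7.83 in WT and 5.75 in Kai1-/- PVCs, a log2 ratio of -0.44 (-0.76 to -0.12). Tead4, best known for its role in the trophectoderm of the early embryo and in muscle, had an RPKM of 7.67 in WT and 5.62 in Kai1-/- PVCs, a log2 ratio of -0.44 (-0.69 to -0.20). These genes lay side by side in the order of levels in both libraries, and their counting intervals overlapped. Tead2 (ENSMUSG00000030796.8, chr7:52471123-52489005) and Tead3 (ENSMUSG00000002249.10, chr17:28468616-28487750) were higher in Kai1-/- PVCs, except when RPKM sums or Gapdh were made equal. Tead2, known from the early embryo and neural tissue, had an RPKM of 8.75 in WT and 11.8 in Kai1-/- PVCs, a log2 ratio of 0.43 (0.26 to 0.61). Tead3, known from the placenta, had an RPKM of 11.6 in WT and 15.7 in Kai1-/- PVCs, a log2 ratio of 0.43 (0.29 to 0.57). With RPKM sums made equal both ratios were -0.05, and scaled to Gapdh they were -0.06 for Tead2 and -0.07 for Tead3.

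The contrast between the pairs did not depend on scaling. Tead1 and Tead4 together made up 43.2% of the summed TEAD RPKM in WT and 29.2% in Kai1-/- PVCs. The share of Tead3 was 32.4% in WT and 40.3% in Kai1-/- PVCs, and that of Tead2 was 24.4% and 30.5%. The ratio of Tead1 to Tead3 was 0.675 in WT and 0.367 in Kai1-/- PVCs, a log2 change of -0.88 (-1.22 to -0.54). Tead4 to Tead2 went from 0.877 to 0.475, a log2 change of -0.89 (-1.18 to -0.59). Within the pairs the ratio moved by less than its counting interval. It was 1.02 in both libraries for Tead1 to Tead4, with a log2 change of 0.00 (-0.39 to 0.40), and 1.33 in WT and 1.32 in Kai1-/- PVCs for Tead3 to Tead2, with a change of 0.00 (-0.22 to 0.22). The summed TEAD level, which does depend on scaling, was 35.9 RPKM in WT and 38.9 RPKM in Kai1-/- PVCs as deposited. With RPKM sums or Gapdh made equal, Kai1-/- values are divided by 1.40 or 1.415, which puts this sum below that of WT. Of the 36-base stretches in the annotated coding transcripts of each TEAD gene, at most 0.784% also occurred in another gene. This counts exact matches only, while the alignment allowed mismatches, so reads shared between paralogues were not measured.

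**Figure D1:**
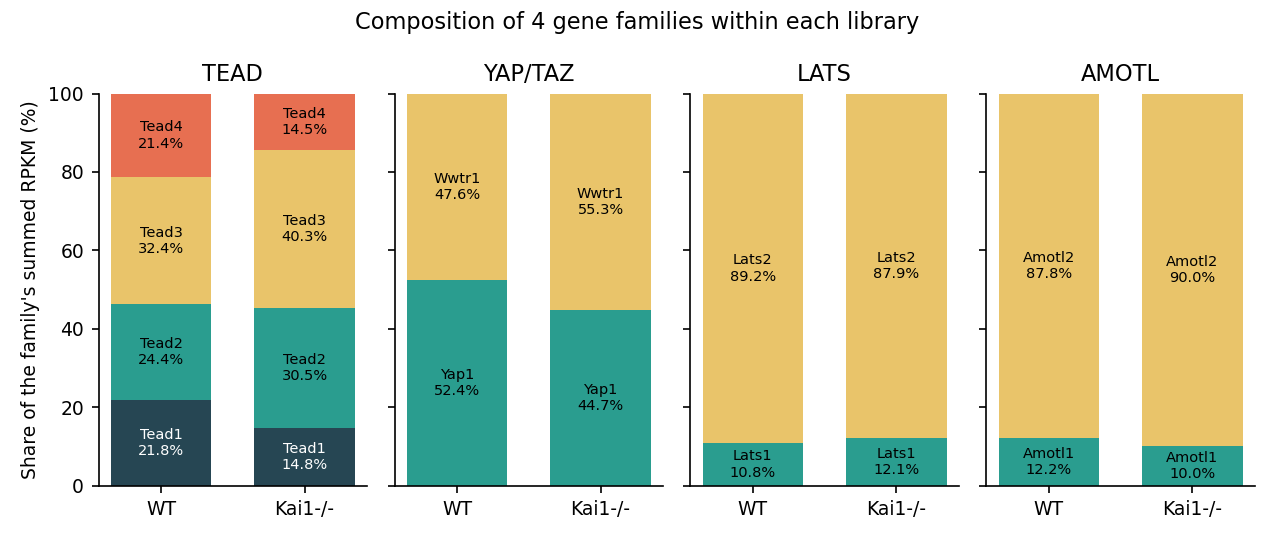
Each bar is the summed RPKM of a gene family in 1 library, set to 100%, and each segment is the share of 1 gene (y axis, percent). The shares of Tead1 and Tead4 are smaller in the Kai1-/- library and those of Tead2 and Tead3 larger, Wwtr1 passes Yap1, and Lats2 and Amotl2 hold 87.8% or more of their families in both libraries.

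The LATS kinases had the lowest log2 ratios of the 10 genes with 0.1 RPKM added, where the counting intervals of Lats1 and Amotl1 overlapped. With 1 RPKM added, Amotl1 (-0.522) was just below Lats1 (-0.514). Lats2 (ENSMUSG00000021959.9, chr14:58260914-58377225) had an RPKM of 25.8 in WT and 13.6 in Kai1-/- PVCs, or 52.7% of WT, a log2 ratio of -0.92 (-1.16 to -0.68). Of the genes kept, 9.0% had a lower ratio. By level, Lats2 held place 2 among the 10 genes in WT and place 5 in Kai1-/- PVCs. Lats1 (ENSMUSG00000040021.6, chr10:7401007-7436256) was the least abundant of the 10 in both libraries, with an RPKM of 3.11 in WT and 1.88 in Kai1-/- PVCs, a log2 ratio of -0.70 (-0.96 to -0.45). The ratio of Lats2 to Lats1 was 8.29 in WT and 7.23 in Kai1-/- PVCs, a change within its counting interval (-0.54 to 0.15 on the log2 scale). The summed LATS level was 28.9 RPKM in WT and 15.4 RPKM in Kai1-/- PVCs. Set against the co-activators within each library, the ratio of Lats2 to Yap1 was 1.46 in WT and 0.913 in Kai1-/- PVCs, and that of Lats2 to Wwtr1 was 1.61 and 0.739, a log2 change of -1.12 (-1.37 to -0.87). Annotated Lats2 coding transcripts range from 786 to 5191 bases, and the shortest was used for the interval, and 4.08% of its 36-base stretches also occurred in other genes.

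Both angiomotin-like genes were lower in Kai1-/- PVCs, and unequally so. Amotl2 (ENSMUSG00000032531.8, chr9:102619002-102635748), a scaffold at junctions and actin fibres, was the most abundant of the 10 genes in both libraries. Its RPKM was 63.9 in WT and 52.8 in Kai1-/- PVCs, a log2 ratio of -0.28 (-0.33 to -0.23). Amotl1 (ENSMUSG00000013076.8, chr9:14346410-14447973), its paralogue at tight junctions, had an RPKM of 8.89 in WT and 5.89 in Kai1-/- PVCs, a log2 ratio of -0.59 (-0.68 to -0.49). The ratio of Amotl2 to Amotl1 was 7.19 in WT and 8.95 in Kai1-/- PVCs, a log2 change of 0.32 (0.21 to 0.43).

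**Figure D2:**
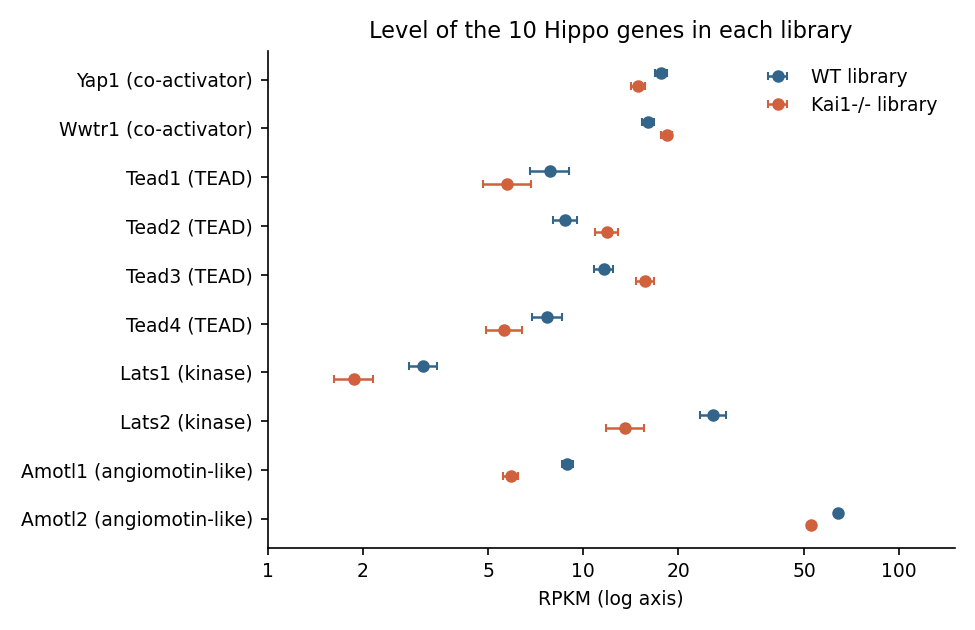
Points give the RPKM of each of the 10 genes (x axis, log scale) in the WT and the Kai1-/- library, 1 library each, and bars are 95% Poisson intervals from estimated reads, which cover counting error only. Yap1, Tead1, Tead4, Lats1, Lats2, Amotl1 and Amotl2 lie lower in the Kai1-/- library and Wwtr1, Tead2 and Tead3 higher, on the scale as deposited.

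In the order of levels, Amotl2 came first in both libraries, and Tead1, Tead4 and Lats1 came last, in this order. Lats2, Yap1, Wwtr1, Tead3, Amotl1 and Tead2 followed Amotl2 in WT. There the counting interval of Tead2 overlapped those of Amotl1, Tead1 and Tead4, and that of Tead1 overlapped those of Amotl1 and Tead4. In Kai1-/- PVCs the order after Amotl2 was Wwtr1, Tead3, Yap1, Lats2, Tead2 and Amotl1. Intervals overlapped among Tead3, Yap1 and Lats2, between Lats2 and Tead2, and among Amotl1, Tead1 and Tead4. In WT the level of Amotl2 was above that of 87.5% of the genes kept, and that of Lats1 above 24.0%.

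As a group the 10 genes were within 2-fold. None was more than 2-fold lower and none more than 2-fold higher, against 7.81% of the 10068 genes that were lower by this much and 7.98% that were higher. A log2 ratio below 0 was found in 7 of the 10, against 44.9% of all genes. The median log2 ratio was -0.36, against 0.08 for all genes, with a range from -0.92 for Lats2 to 0.43 for Tead2. Other scalings moved all genes nearly alike, and the median of all genes was 0.00, -0.19, -0.39 and -0.41 when the median ratio was set to 0, or upper quartiles, RPKM sums or Gapdh were made equal. The same 7 genes were below the median of all genes and the same 3 above it under each of these scalings. Scaled to Gapdh, whose RPKM was 4238 in WT and 5997 in Kai1-/- PVCs, Lats1, Lats2 and Amotl1 were more than 2-fold lower, as were 18.4% of all genes kept at this setting.

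**Figure D3:**
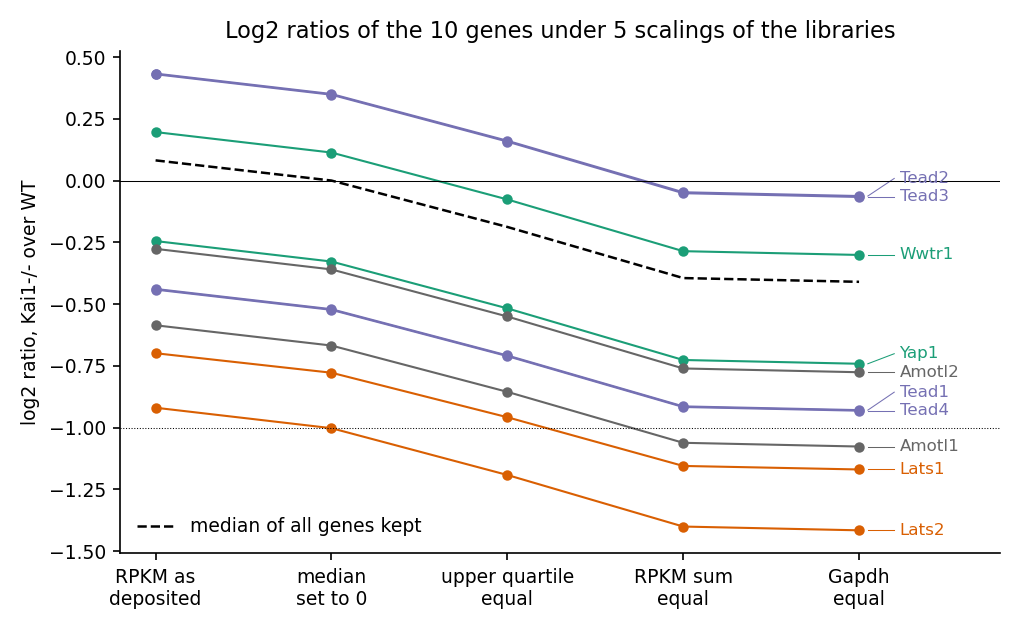
Lines give the log2 ratio (y axis, Kai1-/- over WT) of each of the 10 genes with the libraries scaled in 5 ways (x axis), the dashed line is the median of the 10068 genes, and the dotted line marks 2-fold lower. Wwtr1, Tead2 and Tead3 stay above the dashed line and the other 7 genes below it, while the ratios of Tead2 and Tead3 go from 0.43 to about 0.

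The remaining genes of the pathway were described from a list of 32 regulators and partners, of which 27 were kept. Their median log2 ratio was -0.20, with 16 of the 27 below 0, against 44.9% of all genes. Past 2-fold were 1 lower gene, against 7.81% of all genes, and 1 higher gene, against 7.98%. The genes of the upstream kinases lay within 2-fold. Stk4 (MST1) had an RPKM of 6.16 in WT and 6.15 in Kai1-/- PVCs, and Stk3 (MST2) 4.10 and 5.20, a log2 ratio of 0.34 (0.12 to 0.56) that was -0.14 with RPKM sums made equal and -0.15 when scaled to Gapdh. Their scaffold Sav1 stood at an RPKM of 12.8 in WT and 12.9 in Kai1-/- PVCs. Mob1a, a co-activator of LATS, had an RPKM of 8.22 in WT and 8.56 in Kai1-/- PVCs. Its paralogue Mob1b, whose mean RPKM was below 1, had an RPKM of 1.53 in WT and 0.327 in Kai1-/- PVCs, from an estimated 113 and 22 reads.

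Among the membrane-proximal activators, Nf2 (merlin), which brings LATS to the membrane, had an RPKM of 9.04 in WT and 13.4 in Kai1-/- PVCs, a log2 ratio of 0.56 (0.46 to 0.67). This ratio was 0.08 with RPKM sums made equal and 0.07 when scaled to Gapdh. Wwc1 (KIBRA), a partner of merlin, was the gene more than 2-fold higher, with an RPKM of 5.03 in WT and 10.5 in Kai1-/- PVCs, a log2 ratio of 1.05 (0.91 to 1.19). It was within 2-fold with 1 RPKM added to each value and under each of the 4 other scalings, with a log2 ratio of 0.55 when scaled to Gapdh. Other genes of the list are named after their values were seen. As deposited, Wwc2 and Frmd6 were lower in Kai1-/- PVCs, and Ajuba and Fat1 were higher. Wwc2, the paralogue of Wwc1, had an RPKM of 19.4 in WT and 14.5 in Kai1-/- PVCs, a log2 ratio of -0.41 (-0.48 to -0.34). Frmd6 (willin), a relative of merlin, had an RPKM of 17.1 in WT and 9.40 in Kai1-/- PVCs, a log2 ratio of -0.85 (-0.96 to -0.75). Ajuba had an RPKM of 10.1 in WT and 15.9 in Kai1-/- PVCs, a log2 ratio of 0.65 (0.53 to 0.78). Scaled to Gapdh, this ratio was 0.15. Fat1 had an RPKM of 16.9 in WT and 17.9 in Kai1-/- PVCs, a log2 ratio of 0.085 that was -0.19 with upper quartiles made equal. Amot, the founding angiomotin, was low, with an RPKM of 1.24 in WT and 1.37 in Kai1-/- PVCs. Ptpn14, a phosphatase that binds YAP, had an RPKM of 6.37 in WT and 4.62 in Kai1-/- PVCs.

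The Vestigial-like proteins compete with YAP and TAZ for TEADs or act as further TEAD partners. Vgll3 had the lowest log2 ratio of the 27 genes kept, with an RPKM of 25.6 in WT and 9.19 in Kai1-/- PVCs, a ratio of -1.47 (-1.59 to -1.35). Of all genes kept, 4.10% had a lower one. Vgll4, an inhibitor of TEAD-driven transcription, had an RPKM of 9.90 in WT and 5.18 in Kai1-/- PVCs, a log2 ratio of -0.92 (-1.14 to -0.70). In WT the RPKM of Vgll3 was thus above that of Yap1, and in Kai1-/- PVCs below it. Vgll1 was listed at 0 in both libraries, as was the cadherin gene Dchs1, and Vgll2 and Fat4 had RPKM values below 1.

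Known YAP/TAZ-TEAD target genes were mostly lower in Kai1-/- PVCs. Of a list of 25, 24 were kept, and 22 of the 24 had a log2 ratio below 0, against 44.9% of all genes. More than 2-fold lower were 9 of the 24, or 37.5%, against 7.81% of all genes, and none was more than 2-fold higher. Their median log2 ratio was -0.62. The list holds Amotl2 and Lats2, and without them the median of the other 22 genes was -0.62, with 9 more than 2-fold lower. Tgfb2 was known to be lower when the list was made, and the median without it was -0.60. Many of these genes also answer to other signals, such as TGF-beta, serum and actin dynamics.

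The classical targets were among the most abundant. Ccn1, listed under its older symbol Cyr61, encodes a matricellular protein, and its RPKM was 165 in WT and 81.6 in Kai1-/- PVCs, a log2 ratio of -1.01 (-1.07 to -0.96). Ccn2, listed as Ctgf, encodes connective tissue growth factor, and its RPKM was 379 in WT and 249 in Kai1-/- PVCs, a log2 ratio of -0.60 (-0.63 to -0.57). Ankrd1, a stretch-responsive cofactor of muscle cells, had an RPKM of 357 in WT and 149 in Kai1-/- PVCs, a log2 ratio of -1.26 (-1.30 to -1.22). Crim1, a membrane protein that binds growth factors, had an RPKM of 32.4 in WT and 17.4 in Kai1-/- PVCs. The receptor tyrosine kinase gene Axl had a smaller difference, with an RPKM of 185 in WT and 159 in Kai1-/- PVCs, a log2 ratio of -0.22 (-0.25 to -0.19). The promoter stretches of Ccn1, Ankrd1 and Crim1 are those printed above. Of 16 target genes with a promoter window, 7 had a match to the motif, against 14.1% of the genes kept with a window. The 7 include Amotl2 and Lats2, which were already counted among the Hippo genes with a match above. They also include Ptpn14, which is on the list of regulators and partners too. The target count is thus not separate from the one given above.

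The lowest ratio of the targets was that of Igfbp3, which binds insulin-like growth factors. Its RPKM was 17.7 in WT and 1.35 in Kai1-/- PVCs, a log2 ratio of -3.62 (-4.04 to -3.22). F3 (tissue factor), the starter of coagulation, had an RPKM of 82.4 in WT and 14.7 in Kai1-/- PVCs, a log2 ratio of -2.48 (-2.60 to -2.36). Gadd45a, a stress gene also induced by p53, had an RPKM of 7.70 in WT and 1.68 in Kai1-/- PVCs, a log2 ratio of -2.13. The other genes more than 2-fold lower were Tgfb2 (-1.73), the kinase gene Nuak2 (-1.32), the Arf regulator Asap1 (-1.09) and the RNA-binding protein gene Rbms3 (-1.02). On the scale as deposited, the genes above 0 were Fjx1, with an RPKM of 1.41 in WT and 2.07 in Kai1-/- PVCs, and Dock5, with 2.85 and 4.03, whose ratio was at 0 when scaled to Gapdh. Nt5e, which was below the filter, was listed at 0 in WT and had an RPKM of 0.188 in Kai1-/- PVCs.

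**Figure D4:**
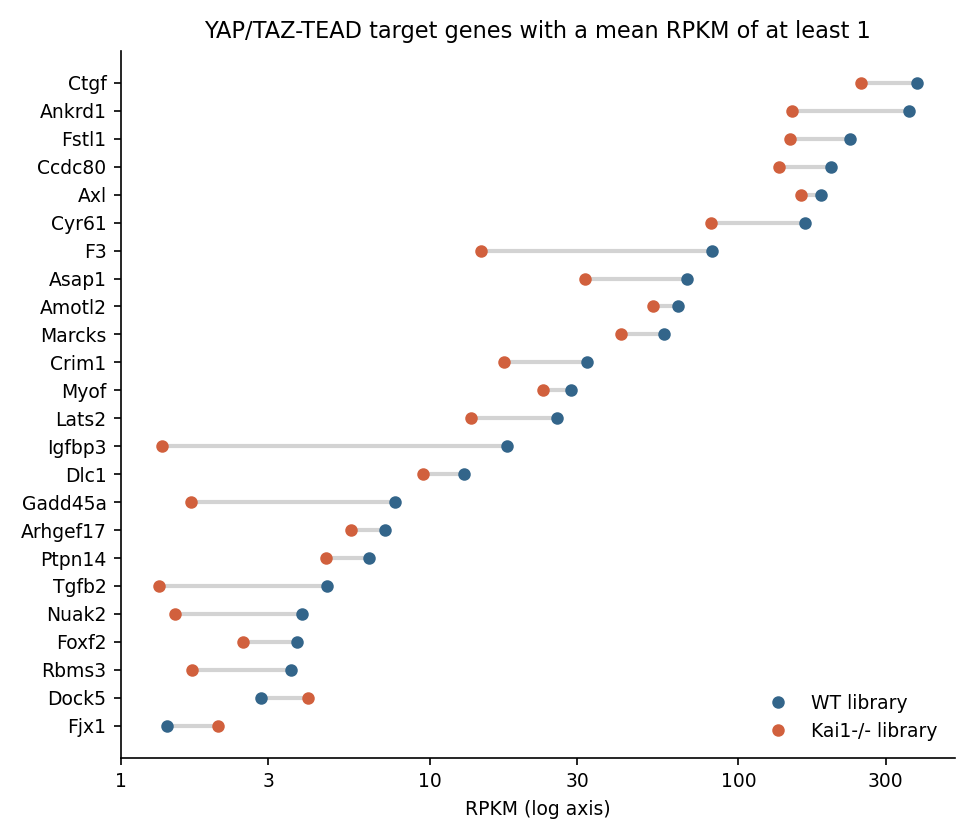
Points give the RPKM (x axis, log scale) of the 24 YAP/TAZ-TEAD target genes kept in the WT and the Kai1-/- library, 1 library each, ordered by the WT value. The Kai1-/- point lies to the left in 22 of 24 genes, furthest for Igfbp3, F3 and Gadd45a, and to the right for Fjx1 and Dock5.

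The mural and proliferation markers of the same libraries are given for comparison. The 7 mural markers kept had a median log2 ratio of -1.04, with 4 more than 2-fold lower, against 7.81% of all genes kept. Of these 4, Myh11 (RPKM of 2.96 in WT, 0.346 in Kai1-/- PVCs) and Mcam (4.90 and 0.264) were kept only through their WT value. Their low ratios are thus partly a result of the filter. Of the 4 mural markers not kept, Rgs5 was higher in Kai1-/- PVCs, and Des, Notch3 and Anpep were lower. The sum over all 11 mural markers was 4646 RPKM in WT and 2978 RPKM in Kai1-/- PVCs, of which Acta2 made up 3823 and 2580 RPKM. The 16 proliferation markers had a median of 1.44 as deposited, and their sum was 261 RPKM in WT and 657 RPKM in Kai1-/- PVCs. Making RPKM sums or Gapdh equal shifts log2 ratios by about -0.49 or -0.50, so fewer of these markers are then more than 2-fold higher. The sums of 11 macrophage markers were 19.1 RPKM in WT and 14.7 RPKM in Kai1-/- PVCs, with Csf1r at 11.7 and 2.66 RPKM, Lyz2 at 3.44 and 1.09 RPKM, and Cd14 in the opposite direction at 1.98 and 10.3 RPKM. Those of 10 epithelial markers were 3.92 and 20.6 RPKM, of which Ppl made up 0.616 and 18.3 RPKM, and Epcam and Krt5 were listed at 0 in both libraries. The part of these cell markers in the levels of the Hippo genes and targets was not tested.

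**Figure D5:**
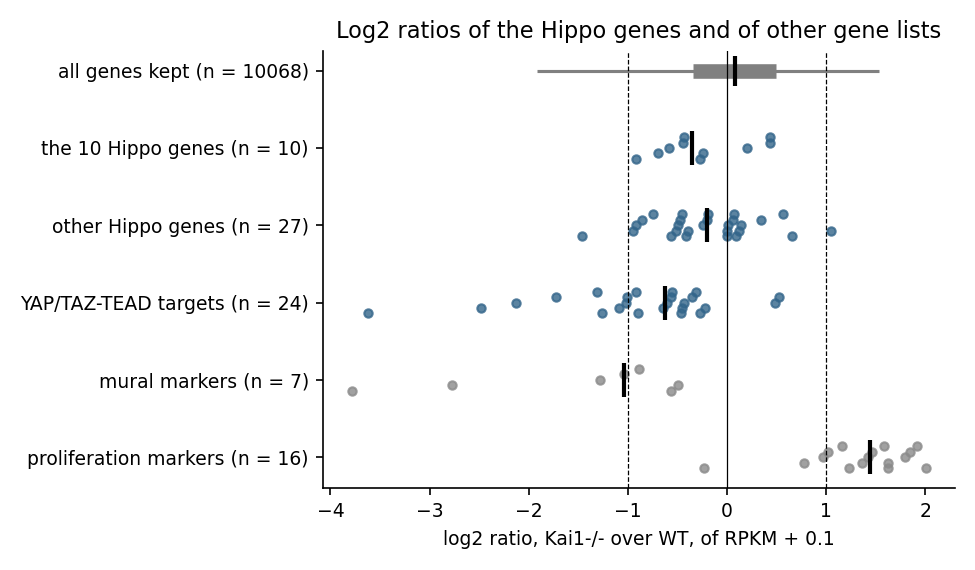
Points give the log2 ratio (x axis, Kai1-/- over WT) of each gene kept, by list, black ticks are medians, and for all 10068 genes the thick bar runs from the lower to the upper quartile and the thin line holds 95% of values. Dashed lines mark 2-fold. Values are on the scale as deposited. The 10 Hippo genes lie within 2-fold with a median of -0.36, the targets reach -3.62 with a median of -0.62, and the proliferation markers centre on 1.44.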

How the data were processed

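RNA from WT and Kai1 KO perivascular cells was sequenced, 1 library each. The authors aligned reads to mm9 (NCBI37) with TopHat (version 2.0.9), using Bowtie (version 0.12.9; segment length 21, 2 mismatches per read) and deposited 1 RPKM value per RefSeq gene and library. The labels also name Cufflinks, and the methods Cuffdiff, without versions. Library type and read number are not given in the sources used here.

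Rows without a symbol (38 of 20462) were left out and 153 repeated symbols averaged. Log2 ratios used a pseudocount of 0.1 RPKM, and a gene was kept when its RPKM averaged 1 or more over both libraries. With 1 library per genotype no test was run. Counts past 2-fold are set beside the share of all genes kept. The ratio step was tested on simulated data.

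Depth was estimated by fitting low RPKM values of genes with a single transcript longer than 800 bases (GENCODE M1, NCBI37) to whole reads, with a fragment length of 200 bases subtracted. Within 0.15 of a whole read lay 80.8% of the WT and 80.7% of the Kai1-/- values used, where 30.0% would by even spread. Reads per gene used the shortest CCDS transcript. Intervals are exact binomial for ratios and exact Poisson for levels, and use a normal approximation for ratios within a library, and cover counting error only.

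The 10 genes and the lists were chosen with earlier results of these data known. The genes named were the 10, every other Hippo gene and target kept that was past 2-fold, and chosen core genes (the MST kinases, Sav1, Mob1a, Mob1b, Nf2, Vgll3, Vgll4, Amot, Ptpn14, Ccn1, Ccn2, Ankrd1, Axl and Crim1). Wwc2, Frmd6, Ajuba and Fat1 were added after their values were seen. For Yap1 and for Lats2, whose log2 ratio was furthest from 0, the 3 nearest genes were also named. Alternatives were 2 pseudocounts, 4 scalings, 2 filters and summed repeats. Python 3.11.15 was used with numpy 2.4.6, pandas 2.3.3, scipy 1.17.1 and matplotlib 3.10.9.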

Additional observations from a re-analysis of the deposited data

How the results depend on the processing

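No paired analysis was possible because there was only 1 WT and 1 Kai1-/- library, and no replicate could be left out. The distance from the middle of the counting interval to its end was taken as the measure of movement. The filters and the treatment of repeated symbols cannot change the ratio of a gene on 1 row. Under the other 6 settings, of 60 recomputed log2 ratios of the 10 genes 30 moved by less than this distance and 30 further, and 7 changed sign, all under a scaling. They were Wwtr1 with upper quartiles (-0.08), RPKM sums (-0.29) or Gapdh (-0.30) made equal, and Tead2 (-0.05 and -0.06) and Tead3 (-0.05 and -0.07) with RPKM sums or Gapdh. With upper quartiles, RPKM sums and Gapdh made equal, the median of the 10 genes was -0.63, -0.84 and -0.85, that of the other Hippo genes -0.47, -0.68 and -0.70, and that of the targets -0.90, -1.11 and -1.12. In these 3 settings and with the median ratio set to 0, the number of the 10 genes more than 2-fold lower was 1, 3, 3 and 1, against 0, and of the other Hippo genes 5, 6, 7 and 3, against 1, with 0 more than 2-fold higher, against 1. Of all genes kept, 12.4%, 18.0%, 18.4% and 9.02% were more than 2-fold lower in these 4 settings. The count of higher other Hippo genes was also 0 with 1 RPKM added. Targets more than 2-fold lower numbered 15 with RPKM sums or Gapdh made equal and 5 when the mean had to reach 5 RPKM, against 9. That filter left 17 of the 24 targets, with 5.37% of all genes more than 2-fold lower. Without a filter, 3 other Hippo genes were more than 2-fold lower, and 1 target, Nt5e, was more than 2-fold higher, against 9.29% and 5.96% of all genes. The scalings shift all genes nearly alike, by construction. The list medians without Amotl2 and Lats2 or without Tgfb2 were chosen after seeing the data. Depth limits genes with few estimated reads in the Kai1-/- library, such as Mob1b (22) and Gadd45a (46). Of the 10 genes, Tead1 had the fewest estimated reads (134), but these were counted on its shortest transcript of 1074 bases, and its longest has 3047. Lats1, the lowest of the 10 in RPKM, had 198.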

Other observations

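For 2 of the genes, those nearest in the plane of both log2 levels were looked up, a likeness over 2 libraries that says nothing of shared control. Nearest to Yap1 were Ythdf1, with an RPKM of 17.6 in WT and 14.8 in Kai1-/- PVCs, Commd7 and Ski. Nearest to Lats2 were Nucb2, Tgfb3, with an RPKM of 24.7 in WT and 12.6 in Kai1-/- PVCs, and Mgll.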
